A study of Homo sapiens with 12 samples.

Results

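The transforming growth factor beta (TGF-beta) family members followed here are 9 genes, chosen by symbol from the 26475 gene symbols of the deposited count table: the ligands TGFB1 and TGFB2, the receptors TGFBR1 and TGFBR2, the signal transducer SMAD3, the inhibitors SMAD7 and SKIL, and the matrix genes TGFBI and THBS1. RNA was sequenced from PA-1, a human cell line from an ovarian teratocarcinoma kept in DMEM, and from SK-OV-3, a human cell line from an ovarian adenocarcinoma kept in RPMI. Each line received vehicle (DMSO) or 5 µM BAY-850, an inhibitor of the ATAD2 bromodomain, for 48 h. There were 3 biological replicates in each of the 4 groups, 12 libraries in all. Each line was grown in its own medium, so line and medium cannot be told apart. The comparisons asked what ATAD2 inhibition changed in each line. The 9 genes were put together with earlier results of these data known, and the study itself had singled out TGFBI and THBS1 for their change in SK-OV-3. For this reason the SK-OV-3 values of TGFBI and THBS1 are given as a description without a test, and the p-values of the other 7 come from the fit of the whole table and are not independent of that choice.

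TGF-beta ligands are secreted in a latent form and are set free at the cell surface and in the matrix, among others by integrins and by thrombospondin 1. The active ligand binds the type II receptor (TGFBR2), which phosphorylates the type I receptor (TGFBR1), which in turn phosphorylates SMAD2 and SMAD3. These enter the nucleus with SMAD4 and change the transcription of matrix and other genes. SMAD7 and SKIL are themselves targets that hold the pathway back, SMAD7 at the receptor and SKIL (SnoN) at the SMAD complex on DNA. TGFBI (beta-ig-h3) and THBS1 are matrix proteins whose genes are known targets, and the pathway is known in epithelial cancers for its part in growth arrest and invasion.

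The libraries held between 34544505 and 51840233 counts. Some marker genes differed widely between the lines. POU5F1 was at 409 CPM (CPM are counts scaled to a common library size, TMM-normalized here) in PA-1 with DMSO and at 6.74 CPM in SK-OV-3 with DMSO, while KRT7 was at 0.103 and 440 CPM. KRT8, another keratin on the list of 5 SK-OV-3 markers, was high in both lines (505 to 558 CPM in PA-1 and 588 to 618 CPM in SK-OV-3 with DMSO). KRT18, also on that list, went the other way, with 335 CPM in PA-1 and 266 CPM in SK-OV-3 with DMSO. Between the DMSO groups, 4 of the 5 passed as higher in SK-OV-3 and 1 as lower. The summed level of that list in SK-OV-3 was 3530 to 3900 CPM with DMSO and 2550 to 3020 CPM with BAY-850, 2 of the 5 passed as lower (ERBB2 and KRT8), and its part in the results was not tested. The summed level of 5 markers of leukocytes, endothelium and fibroblasts lay between 53.6 and 62.7 CPM in PA-1 and between 3.29 and 5.65 CPM in SK-OV-3, and the leukocyte marker PTPRC did not exceed 4 counts in any library. In SK-OV-3 that sum was 4.58 to 5.65 CPM with DMSO and 3.29 to 3.87 CPM with BAY-850, and its part in the results was not tested. The SK-OV-3 BAY-850 replicate 3 library stood apart. It had the highest total, the fewest genes with a count (15629, against 17425 to 18414 in the others), and 34 counts of SOX2 where the other SK-OV-3 libraries had 0. Of the other PA-1 markers, SALL4 had 49 counts there, against 10 and 13 in BAY-850 replicates 1 and 2. POU5F1 had 472, against 282 and 369, but scaled to library size it was at 8.79 CPM, against 6.94 and 8.74 CPM, close to replicate 2. LIN28A had 2, against 9 and 14, and DPPA4 had 0 in all of them. The endothelial marker CDH5 had 45 counts there, against 0 in replicates 1 and 2. What set this library apart was not tested. The SK-OV-3 values of TGFB2, SMAD3, TGFBI and THBS1 and the counts of the gene lists are therefore also given without it, and the call of no other member changed when it was left out. In bulk RNA, fewer cells of one kind and less RNA per cell cannot be told apart.

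The order of the members' levels with DMSO was not the same in the lines. To compare genes with each other, CPM were divided by the length of each gene's exons in kb. All annotated exons of a gene were merged for this, which can exceed the length of its transcripts, so the order between genes depends on that choice. In PA-1 with DMSO the ligand gene TGFB1 led with 36.4 ± 4.20 CPM per kb (SD, n = 3), followed by SKIL with 11.2 ± 0.154 and the type I receptor TGFBR1 with 10.2 ± 0.216. SMAD3, SMAD7, TGFBI, TGFBR2 and THBS1 followed in that order between 6.10 and 4.66 CPM per kb, and the libraries of each overlapped those of its neighbour in the order. TGFB2 was last with 0.0168 CPM per kb. Before division by length, THBS1 (42.7 CPM) and TGFBI (42.1 CPM) lay above SMAD7 (28.1 CPM) in this group. In SK-OV-3 with DMSO the matrix genes came first, TGFBI with 46.6 ± 0.420 and THBS1 with 38.4 ± 2.70 CPM per kb. They were followed by TGFB1 (25.7), TGFBR2 (22.7), SMAD7 (12.1), SKIL (11.4), SMAD3 (8.01), TGFBR1 (4.94) and TGFB2 (2.17), and only SMAD7 and SKIL overlapped among these neighbours.

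**Figure D1:**
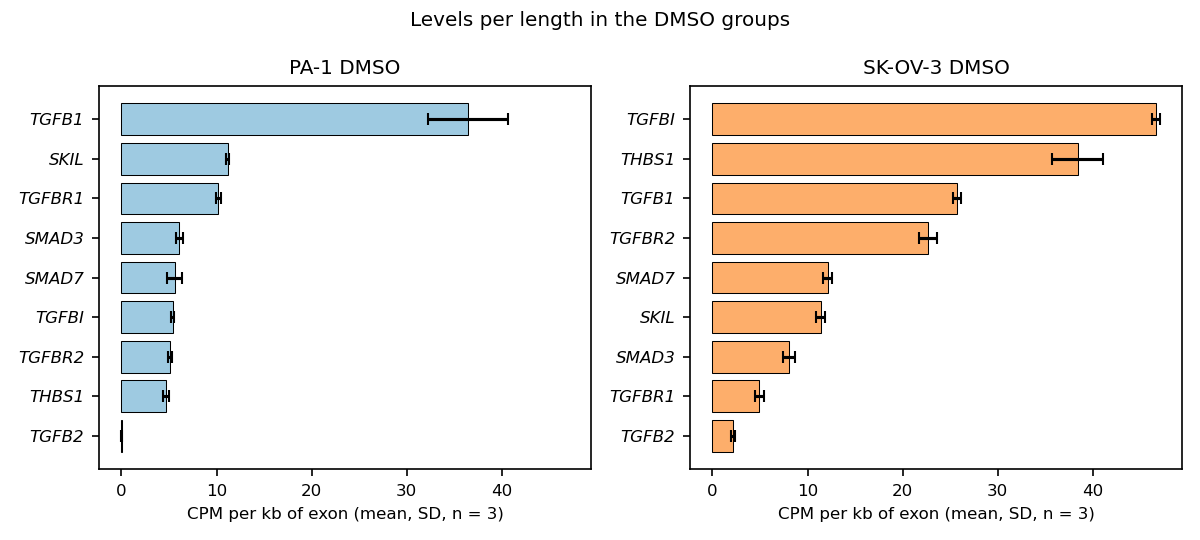
Level of the 9 genes in the DMSO groups of PA-1 (left) and SK-OV-3 (right), in CPM per kb of exon. All annotated exons of a gene were merged for its length, and the order depends on that choice. Bars are means of 3 libraries and error bars are SDs. TGFB1 led in PA-1 with 36.4 CPM per kb, and TGFBI led in SK-OV-3 with 46.6.

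Between the DMSO groups, 76.4% of 16830 genes differed in edgeR's quasi-likelihood test at an adjusted p (Benjamini-Hochberg over all genes tested) under 0.05. Among the 7 members other than TGFBI and THBS1, 4 were higher in SK-OV-3, 2 were lower and 1 did not pass, where 38.3% of all genes were higher and 38.1% lower. TGFBR2 was higher by 2.16 ± 0.0692 on the log2 scale (standard error, SE), 4.47-fold, with an adjusted p of 1.25e-13. TGFBR1 moved the other way and was 2.06-fold lower (log2 -1.04 ± 0.0708, adjusted p = 1.44e-09). The ratio of TGFBR1 to TGFBR2 per kb had a median of 1.99 in PA-1 with DMSO and of 0.214 in SK-OV-3 with DMSO, and the highest ratio in SK-OV-3 (0.234) lay below the lowest in PA-1 (1.89). SMAD7 (log2 1.11, adjusted p = 9.29e-09) and SMAD3 (log2 0.39, adjusted p = 1.85e-04) were higher in SK-OV-3, and TGFB1 was lower (log2 -0.50, adjusted p = 6.59e-05). SKIL was at 87.1 and 89.0 CPM in the DMSO groups (log2 0.031 ± 0.0513, adjusted p = 0.599), and at log2 0.30 with an adjusted p of 8.12e-05 once each library's trend on GC content was removed. TGFBI and THBS1 were 8.66-fold and 8.23-fold higher in SK-OV-3. The libraries of the lines did not overlap for 6 of the 7 members other than TGFBI and THBS1, against 80.8% of all genes tested.

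**Figure D2:**
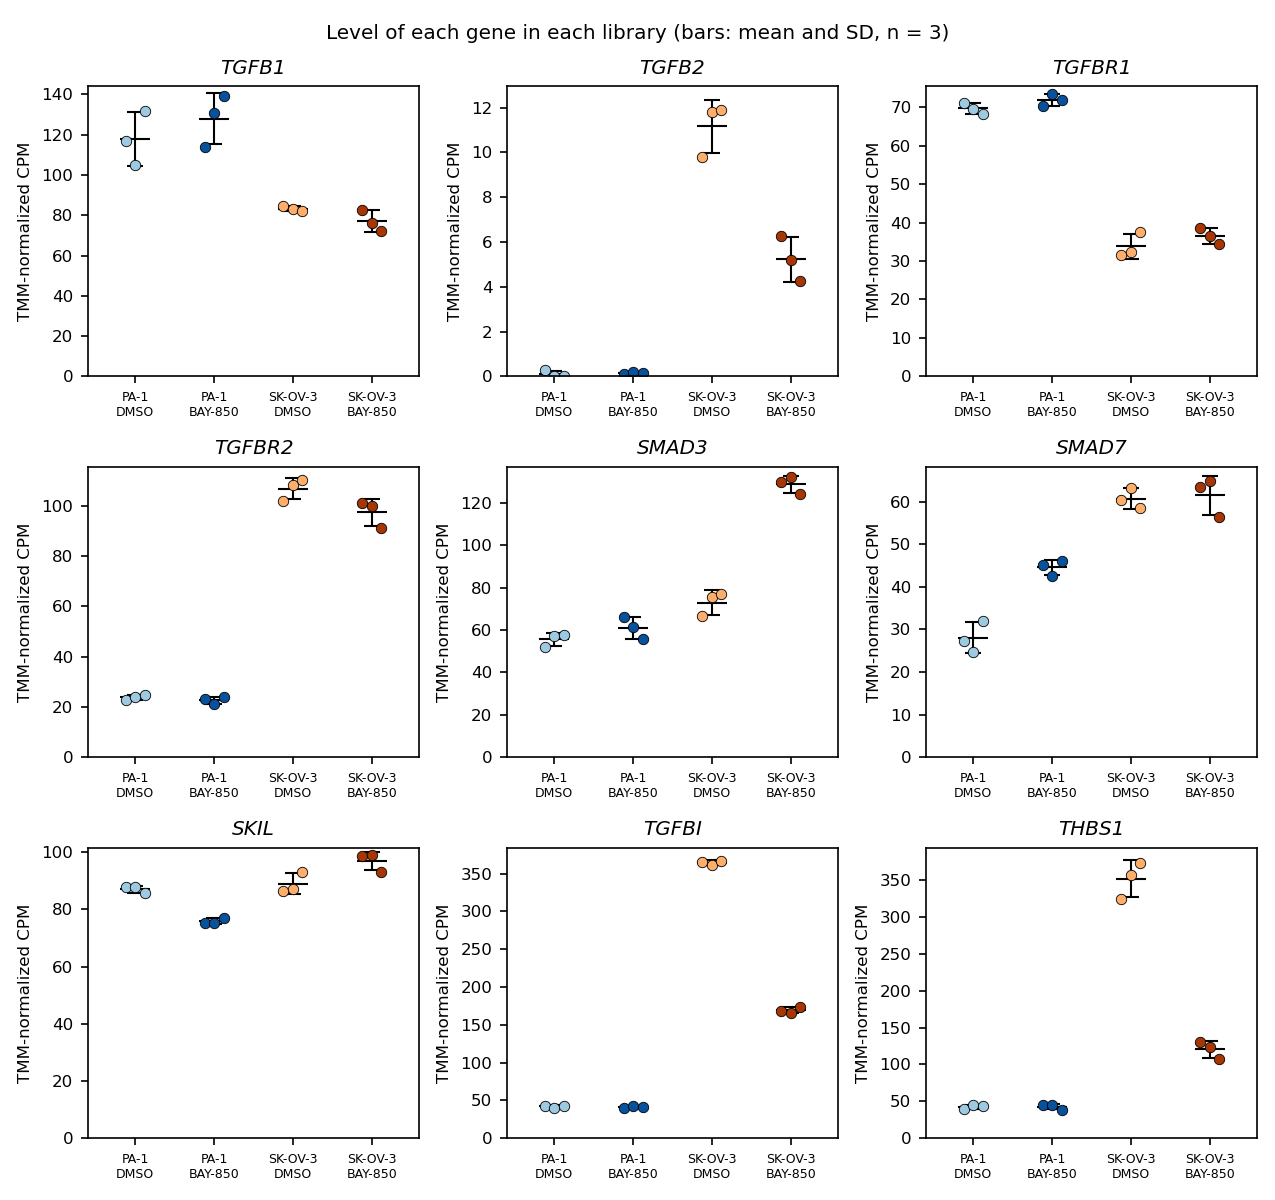
TMM-normalized CPM of each of the 9 genes in all 12 libraries, 1 panel per gene with its own axis from 0. Points are libraries, and black bars are the mean and SD of 3 libraries. TGFB2, TGFBI and THBS1 were lower and SMAD3 was higher in all 3 SK-OV-3 libraries with BAY-850, and SMAD7 was higher in all 3 PA-1 libraries with BAY-850.

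With BAY-850, 7.13% of 15212 genes passed an adjusted p of 0.05 in PA-1, and 20.4% of 15348 did in SK-OV-3. Of the 7 members other than TGFBI and THBS1, 6 could be tested in PA-1, where SMAD7 was higher, SKIL was lower and 4 did not pass. In SK-OV-3 all 7 could be tested, and SMAD3 was higher, TGFB2 was lower and 5 did not pass. Of these, the groups did not overlap for 2 of the 6 in PA-1, where the share over all genes tested was 27.5%, and for 3 of the 7 in SK-OV-3, where it was 38.6%.

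Of the ligands, TGFB2 fell in SK-OV-3. TGFB2 lies at chr1:218346235-218444619 (GRCh38, plus strand). Its level was 9.81, 11.8 and 11.9 CPM in the SK-OV-3 libraries with DMSO and 6.27, 5.19 and 4.26 CPM in those with BAY-850. Every BAY-850 library was below every DMSO library, a 2.12-fold difference (log2 -1.08 ± 0.168, adjusted p = 9.97e-04). Without BAY-850 replicate 3 the log2 value was -0.96 with an adjusted p of 5.21e-04, and with all 12 libraries in one fit the adjusted p was 0.0545. The annotated non-coding gene TGFB2-OT1 shares 1371 exonic bases with TGFB2 on the same strand, and counting both as one gene, an alternative added after seeing the data, gave log2 -1.15 (adjusted p = 8.68e-04). In PA-1, TGFB2 had 9, 0 and 0 counts with DMSO and 4, 8 and 5 with BAY-850, too few to be tested, and a count of 0 still allows up to 3. Compared with these counts, the 390 to 459 counts of the SK-OV-3 libraries with DMSO gave a log2 difference between the lines of 7.08 (adjusted p = 1.80e-08). That value rested on PA-1 DMSO replicate 1, and without it, with the PA-1 DMSO group at 0, the fit gave 11.84, a value that depends on the prior count. TGFB3, the remaining TGF-beta ligand, was low in both lines, with 18 to 62 counts in the PA-1 libraries and 14 to 82 in the SK-OV-3 libraries. In SK-OV-3 it was at 1.86 ± 0.395 CPM with DMSO and at 0.792 ± 0.390 CPM with BAY-850. All BAY-850 libraries lay below the DMSO libraries there, but the difference did not pass (log2 -1.20 ± 0.488, adjusted p = 0.108). In PA-1 the groups overlapped (log2 -0.65 ± 0.418, adjusted p = 0.379).

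TGFB1 (chr19:41301587-41353911, minus strand) was the ligand that both lines expressed. In PA-1 its level was 117, 105 and 132 CPM with DMSO and 114, 131 and 139 CPM with BAY-850. In SK-OV-3 it was 84.7, 83.1 and 82.2 CPM with DMSO and 82.8, 76.2 and 72.3 CPM with BAY-850. The groups overlapped in both lines, and neither difference passed (log2 0.12 ± 0.0858, adjusted p = 0.425 in PA-1, and log2 -0.10 ± 0.0617, adjusted p = 0.292 in SK-OV-3). TGFB1 shares 215 exonic bases with HNRNPUL1 on the opposite strand. Libraries were made strand-specific per the labels, but whether the strand was used in counting is not given in the sources used here.

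Neither receptor gene passed the test in either line. TGFBR1 (chr9:99104038-99154192, plus strand) was at 71.2, 69.6 and 68.3 CPM with DMSO and at 70.4, 73.4 and 71.8 CPM with BAY-850 in the PA-1 libraries. In SK-OV-3 it was at 31.6, 32.3 and 37.5 CPM with DMSO and at 38.6, 36.6 and 34.4 CPM with BAY-850. The groups overlapped, with log2 differences of 0.045 ± 0.0565 in PA-1 (adjusted p = 0.679) and 0.12 ± 0.0843 in SK-OV-3 (adjusted p = 0.339). TGFBR2 (chr3:30606502-30694142, plus strand) was at 22.7, 24.0 and 24.8 CPM with DMSO and 23.0, 21.0 and 23.9 CPM with BAY-850 in the PA-1 libraries. In SK-OV-3 it was at 102, 108 and 110 CPM with DMSO and at 101, 100 and 91.2 CPM with BAY-850. Here the BAY-850 libraries all lay below the DMSO libraries, but the difference did not pass (log2 -0.12 ± 0.0581, adjusted p = 0.181), and in PA-1 it was -0.074 ± 0.0823 (adjusted p = 0.638).

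SMAD3 (chr15:67063763-67195195, plus strand), which carries the signal from the receptors to DNA, rose in SK-OV-3. Its level there was 66.4, 75.4 and 77.1 CPM with DMSO and 130, 132 and 124 CPM with BAY-850. All BAY-850 libraries were above all DMSO libraries, a 1.78-fold difference (log2 0.83 ± 0.0647, adjusted p = 6.21e-06), and without BAY-850 replicate 3 the log2 value was 0.85. In PA-1 it was at 51.9, 57.0 and 57.9 CPM with DMSO and at 66.0, 61.3 and 55.7 CPM with BAY-850. There the groups overlapped (log2 0.14 ± 0.0723, adjusted p = 0.276). The response of SMAD3 differed between the lines by 0.69 ± 0.105 on the log2 scale (adjusted p = 4.92e-04 for the interaction of line and BAY-850). Within SK-OV-3 libraries the ratio of SMAD3 to SMAD2 per kb had a median of 2.21 with DMSO and 3.36 with BAY-850, and the ranges of 1.93 to 2.24 and 2.99 to 3.63 did not overlap. The size of this ratio depends on the merged exon lengths, so only its change is read here. Before division by length SMAD2 lay above SMAD3. The means in the DMSO group were 137 CPM for SMAD2 against 73.0 for SMAD3. In the BAY-850 group they were 155 against 129 CPM.

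SMAD7 (chr18:48919853-48952052, minus strand), the inhibitory SMAD, rose in PA-1. Its level there was 27.4, 24.8 and 32.1 CPM with DMSO and 45.1, 42.6 and 46.1 CPM with BAY-850. All BAY-850 libraries were above all DMSO libraries, a 1.59-fold difference (log2 0.67 ± 0.0874, adjusted p = 2.84e-04), and after removal of the GC trend it was 0.58 (adjusted p = 6.13e-04). In SK-OV-3 it was at 60.3, 63.3 and 58.4 CPM with DMSO and at 63.4, 64.8 and 56.3 CPM with BAY-850, with overlapping groups (log2 0.030 ± 0.0677, adjusted p = 0.798). The interaction was -0.65 ± 0.122 on the log2 scale (adjusted p = 0.00234). As SMAD3 rose in one line and SMAD7 in the other, the ratio of SMAD7 to SMAD3 per kb went from a median of 0.956 with DMSO to 1.26 with BAY-850 in PA-1 and from 1.52 to 0.879 in SK-OV-3. In each line the ranges of the ratio with DMSO and with BAY-850 did not overlap. The size of this ratio also depends on the merged exon lengths. Before division by length the mean of SMAD7 lay below that of SMAD3 in every group.

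SKIL (chr3:170357678-170396835, plus strand), the SMAD co-repressor, was lower with BAY-850 in PA-1 by a small margin. It was at 87.7, 87.9 and 85.7 CPM with DMSO and at 75.4, 75.2 and 77.1 CPM with BAY-850. No library overlapped, and the difference was 1.15-fold (log2 -0.20 ± 0.0552, adjusted p = 0.0444). SKIL had the lowest GC content of the 9 genes, 33.4% in its longest transcript, and with the GC trend removed its log2 value was -0.030 with an adjusted p of 0.815. It also no longer passed without any one of PA-1 DMSO replicates 1, 2 and 3 or BAY-850 replicates 1 and 2 (adjusted p = 0.0637 to 0.183). In SK-OV-3 it was at 86.6, 87.2 and 93.2 CPM with DMSO and at 98.6, 99.0 and 93.1 CPM with BAY-850, groups that overlapped (log2 0.14 ± 0.0556, adjusted p = 0.111). The interaction was 0.32 ± 0.0724 (adjusted p = 0.00781), and 0.21 (adjusted p = 0.0655) with the GC trend removed.

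The matrix genes TGFBI and THBS1 were lower with BAY-850 in SK-OV-3, as the study's choice of them already fixed. TGFBI (chr5:136028895-136063818, plus strand) was at 365, 361 and 367 CPM with DMSO and at 168, 166 and 174 CPM with BAY-850, 2.13-fold lower (log2 -1.09 ± 0.0494). THBS1 (chr15:39581079-39599466, plus strand) was at 324, 357 and 373 CPM with DMSO and at 130, 124 and 108 CPM with BAY-850, 2.89-fold lower (log2 -1.53 ± 0.0710). Without BAY-850 replicate 3 the log2 values were -1.13 for TGFBI and -1.47 for THBS1. With BAY-850 both genes stayed above their level in PA-1. TGFBI in PA-1 was at 43.2, 40.5 and 42.6 CPM with DMSO and at 40.1, 42.4 and 41.5 CPM with the inhibitor, and this difference did not pass (log2 -0.024 ± 0.0635, adjusted p = 0.865). THBS1 in PA-1 was at 39.2, 44.5 and 44.3 CPM with DMSO and at 45.3, 45.0 and 38.8 CPM with BAY-850, with overlapping groups (log2 0.013 ± 0.0772, adjusted p = 0.942). The log2 responses of the lines differed by -1.08 for TGFBI and by -1.56 for THBS1. THBS1 shares 448 exonic bases with FSIP1 on the opposite strand, which had 31 to 106 counts.

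**Figure D3:**
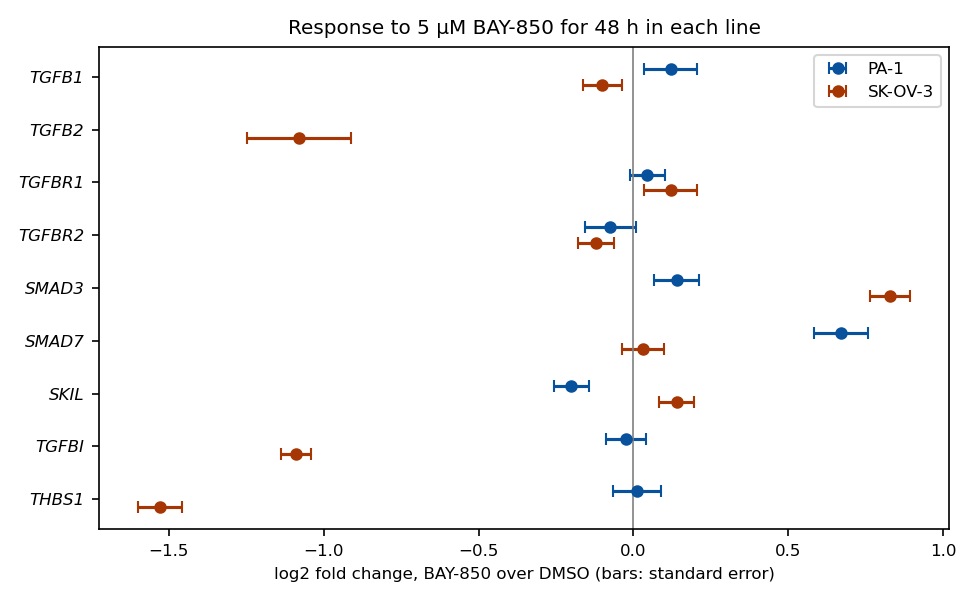
Log2 fold change of BAY-850 over DMSO for the 9 genes in PA-1 (blue) and SK-OV-3 (brown), with standard errors from edgeR. TGFB2 could not be tested in PA-1. TGFB2, TGFBI and THBS1 lay at -1.08, -1.09 and -1.53 in SK-OV-3, SMAD3 at 0.83 in SK-OV-3 and SMAD7 at 0.67 in PA-1.

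The promoters of the 9 genes were read for short motifs of factors that act with the pathway, in the 250 bases before the RefSeq start (GRCh38.p14) and on both strands. The motifs were GTCTAGAC and CAGACA for SMADs, TGANTCA for AP-1 and GGAATG for TEAD. Over 27305 promoters of the same length, 0.176%, 13.6%, 6.6% and 11.9% held these motifs in that order. Among the 9 members CAGACA was found in 1, GGAATG in 2, and GTCTAGAC and TGANTCA in none. The matches were in TGFB2 and THBS1, both lower with BAY-850 in SK-OV-3, and their windows are shown for this reason, with motif matches in capitals. The window of TGFB2 is chr1:218345086-218345335 and that of THBS1 is chr15:39580829-39581078, both on the plus strand. The RefSeq start of TGFB2 lies upstream of the start given above from GENCODE. For TGFBR1, SMAD3 and SMAD7 the window read lies inside the gene as GENCODE gives it. The bases just before their GENCODE starts were not read, so a missing motif there is not shown.
TGFB2: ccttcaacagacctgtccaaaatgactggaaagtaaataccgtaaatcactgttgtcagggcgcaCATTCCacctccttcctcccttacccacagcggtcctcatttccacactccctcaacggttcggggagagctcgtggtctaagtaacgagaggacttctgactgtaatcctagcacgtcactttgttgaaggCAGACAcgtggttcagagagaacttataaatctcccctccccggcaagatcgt
THBS1: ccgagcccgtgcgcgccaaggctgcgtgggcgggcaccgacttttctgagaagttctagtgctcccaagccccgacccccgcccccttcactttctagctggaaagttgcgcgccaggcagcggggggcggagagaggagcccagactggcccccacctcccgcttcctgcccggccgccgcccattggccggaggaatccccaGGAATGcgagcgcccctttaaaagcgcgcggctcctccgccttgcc
In TGFB2, CATTCC is GGAATG read on the opposite strand, 185 to 180 bases before the start, and CAGACA lies 53 to 48 bases before it. In THBS1, GGAATG lies 46 to 41 bases before the start. The matches are a description of letters in the window, and TGFBI, which was also lower, had none of the 4 motifs there.

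Other genes of the pathway were read from 6 lists with 87 genes, of which 82 were tested in PA-1 and 77 in SK-OV-3. In PA-1, 13 passed as higher and 1 as lower, against 4.65% and 2.48% of all genes tested. In SK-OV-3, 18 passed as higher and 24 as lower, against 10.8% and 9.56% of all genes tested. Like the members, the lists were written with earlier results of these data known.

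Matrix and contractile genes were the list with the most falls in SK-OV-3. Of 23 genes 22 were tested, 13 fell, 4 rose and 5 did not pass, with a median log2 fold change of -0.73 where the median of all genes was -0.009. TAGLN, which encodes the actin-binding protein transgelin, fell 5.34-fold from 341 ± 32.2 to 63.3 ± 3.72 CPM (log2 -2.42 ± 0.0740, adjusted p = 6.11e-09). CTGF and CYR61, secreted matricellular proteins, fell by 1.57 and 1.07 on the log2 scale (adjusted p = 2.68e-08 and 5.59e-08), and COL1A2, a chain of collagen I, fell by 1.15 (adjusted p = 9.62e-04). The 4 that rose were named after their values were seen: fibronectin (FN1, log2 0.59), the lysyl oxidases LOX (0.86) and LOXL2 (0.57), and tenascin C (TNC, 0.38). The list had 13 falls and 5 rises without SK-OV-3 BAY-850 replicate 3.

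In PA-1 the same list had 7 rises and no fall by edgeR among 23 genes tested (11 higher and 2 lower at an unadjusted p under 0.05), with a median of 0.20 where the median of all genes was -0.002. At library-size scaling 1 of them passed as higher and none as lower, with the GC trend removed 3 as higher and 1 as lower, and by DESeq2 9 as higher and 2 as lower. Without PA-1 DMSO replicate 1, 4 passed as higher. Without DMSO replicate 2 or without BAY-850 replicate 2, 3 did. LOX, which cross-links collagen, rose 2.55-fold from 5.59 ± 0.333 to 14.2 ± 0.420 CPM (log2 1.35 ± 0.115, adjusted p = 3.38e-06). The proteoglycan VCAN rose by log2 0.39 (adjusted p = 0.00395), and COL1A1 and COL5A1, chains of collagens I and V, each by 0.33 (adjusted p = 0.0194 and 0.00558). COL1A1 and COL5A1 no longer passed with the GC trend removed (adjusted p = 0.110 and 0.0699), and all 3 no longer passed at library-size scaling (adjusted p = 0.0567 to 0.109). COL1A1 also did not pass without any one of PA-1 DMSO replicates 1 and 2 and BAY-850 replicate 2 (adjusted p = 0.0928 to 0.126). With all 12 libraries in one fit its adjusted p was 0.0647. In the test of the difference between the lines, 15 of 23 genes were lower in their response in SK-OV-3 and 1 was higher, with a median of -0.87. Of all 16830 genes 7.77% were lower and 6.70% higher in that test.

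**Figure D4:**
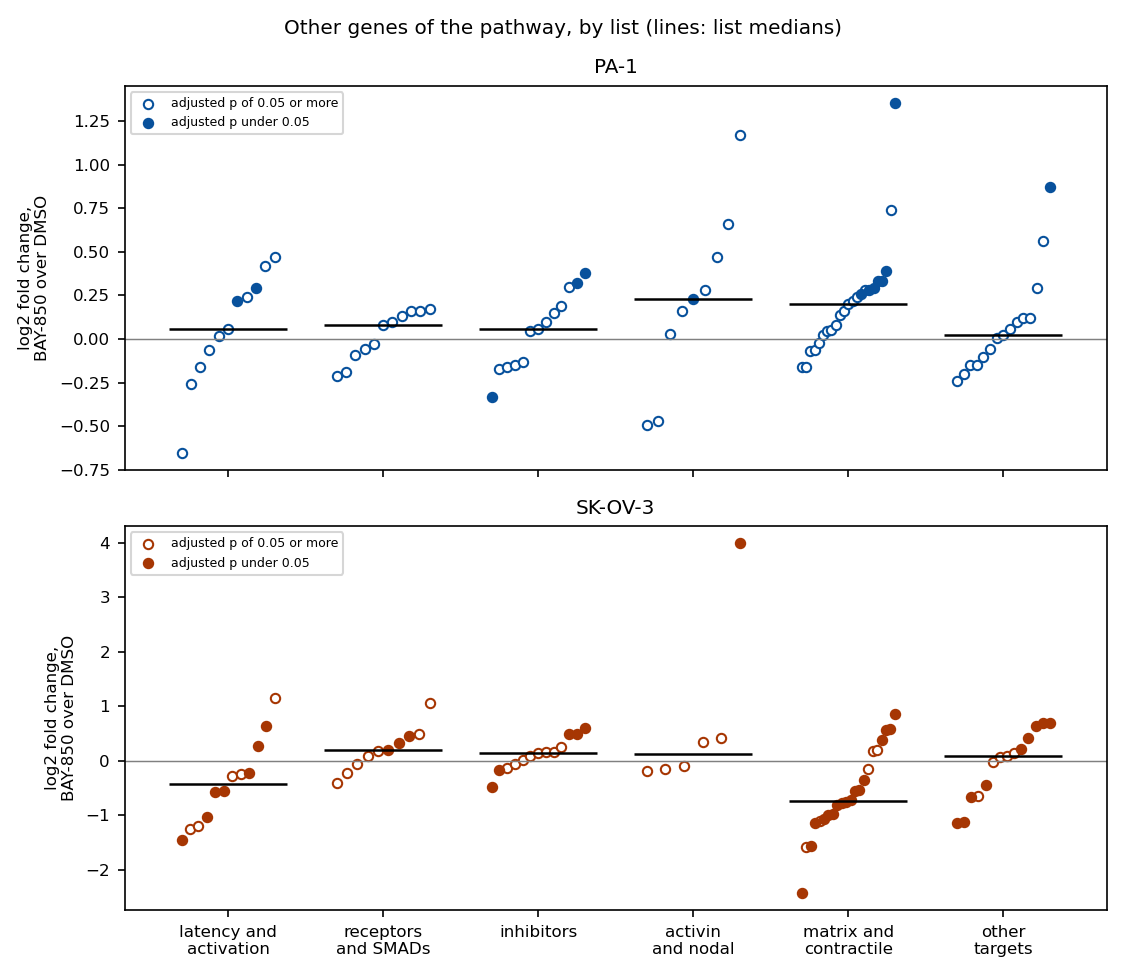
Log2 fold change of BAY-850 over DMSO for the other genes of the pathway in PA-1 (top) and SK-OV-3 (bottom), grouped by list, with a different vertical scale in each panel. Filled points passed an adjusted p of 0.05, open points did not, and horizontal lines are list medians. The median of the matrix list was 0.20 in PA-1 and -0.73 in SK-OV-3.

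Genes for storage and activation of the ligands moved in both directions in SK-OV-3, with 5 falls and 2 rises among 12 tested. There were 3 falls and 1 rise without any one of SK-OV-3 DMSO replicates 2 and 3 and BAY-850 replicate 1, and 6 falls and 2 rises without BAY-850 replicate 3. ITGB6, whose integrin releases latent TGF-beta, fell from 29.6 ± 1.47 to 14.3 ± 1.32 CPM (log2 -1.04 ± 0.103, adjusted p = 4.03e-05), and its partner subunit ITGAV fell by 0.58 (adjusted p = 3.19e-04). The proteoglycan BGN fell by 1.45 at a mean of 1.38 CPM (adjusted p = 0.0443), and did not pass without any one of DMSO replicates 1, 2 and 3 and BAY-850 replicate 1 (adjusted p = 0.103 to 0.178). Nor did BGN pass with the replicate number as a block (adjusted p = 0.0781). LTBP4, a latent TGF-beta binding protein, rose by log2 0.63 (adjusted p = 0.00625). In PA-1, LTBP4 (log2 0.29, adjusted p = 0.0467) and LTBP1 (log2 0.22, adjusted p = 0.0494) passed among 11 tested, and with the GC trend removed neither did (adjusted p = 0.275 and 0.134). Over 15 alternatives LTBP4 no longer passed in 8 and LTBP1 in 11. ITGB6 had a mean of 0 CPM in PA-1 with DMSO.

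Among other receptors and SMADs, 3 of 10 rose and none fell in SK-OV-3 by edgeR (5 higher and 0 lower at an unadjusted p under 0.05, and 5 and 0 by DESeq2), namely the activin receptor ACVR2B (log2 0.45, adjusted p = 0.0197), TRIM33, a partner of SMAD4 (0.33, adjusted p = 0.00183), and SMAD2 (0.20, adjusted p = 0.0489). The list had 1 rise without any one of DMSO replicates 1 and 3 and BAY-850 replicate 2. ACVR2B did not pass without any one of DMSO replicates 1 and 2 and BAY-850 replicate 2 (adjusted p = 0.0571 to 0.0650), and lay at the threshold, not under it, without DMSO replicate 3. SMAD2 did not pass without any one of these 4 libraries or BAY-850 replicate 3 (adjusted p = 0.0756 to 0.152), nor at library-size scaling (adjusted p = 0.0872). It also did not pass at library-size scaling without ribosomal RNA genes (0.0589), with RLE factors (0.0537) or with the replicate number as a block (0.0708). Without BAY-850 replicate 3, 3 of the list, SMAD2 not among them, passed as higher. None of the 11 tested in PA-1 passed in edgeR or DESeq2, and 1 was higher and 1 lower in edgeR at an unadjusted p under 0.05.

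On the list of other inhibitors, 3 rose and 2 fell of 13 in SK-OV-3. The falls were 1 without any one of DMSO replicates 2 and 3 and BAY-850 replicates 1, 2 and 3, at library-size scaling and with the GC trend removed, and 3 without DMSO replicate 1. The co-repressor TGIF1 rose by log2 0.61 (adjusted p = 1.66e-05), the ubiquitin ligase NEDD4L by 0.50 (adjusted p = 5.17e-05) and the pseudoreceptor BAMBI by 0.49 (adjusted p = 0.00616). PMEPA1, which sequesters receptor SMADs, fell by 0.49 (adjusted p = 9.56e-05). In PA-1 the co-repressors TGIF2 (log2 0.38, adjusted p = 0.00679) and SKI (0.32, adjusted p = 0.00896) rose. USP15, a deubiquitinase of the type I receptor that is on the list but is not itself an inhibitor, fell by 0.33 (adjusted p = 0.00337). With the GC trend removed SKI and USP15 did not pass (adjusted p = 0.0677 and 0.0629). SKI also did not pass at library-size scaling (adjusted p = 0.0914), nor without any one of DMSO replicates 1 and 2 and BAY-850 replicate 2 (adjusted p = 0.0530 to 0.0597). The ratio of SKIL to its relative SKI per kb went from a median of 1.04 with DMSO to 0.714 with BAY-850 in PA-1 and from 0.807 to 0.909 in SK-OV-3, without overlap of the libraries in either line. This ratio was not corrected for GC content, and its size depends on the merged exon lengths. With the GC trend removed, the log2 values in PA-1 were -0.030 for SKIL and 0.22 for SKI.

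Among activin and nodal genes, INHBE, which encodes the activin E subunit, rose in SK-OV-3 from 0.147 ± 0.0571 to 2.35 ± 0.137 CPM (log2 3.99 ± 0.484, adjusted p = 1.84e-04), while PA-1 held 42.5 and 43.4 CPM. Follistatin (FST), which binds activins, rose in PA-1 by log2 0.23 (adjusted p = 0.0206). It no longer passed in 5 of 15 alternatives. These were library-size scaling (adjusted p = 0.118), all 12 libraries in one fit (0.289), and the fits without DMSO replicate 1 (0.0555), DMSO replicate 2 (0.101) or BAY-850 replicate 2 (0.0844). The remaining target list was split in SK-OV-3, with 5 rises and 4 falls among 14, and the same counts without BAY-850 replicate 3. The activin list had 1 rise and no fall both with and without that library. SPHK1, a sphingosine kinase, and the cytokine IL11 fell by 1.14 and 1.12 (adjusted p = 3.25e-06 and 2.88e-05), and ID3 and ID2, inhibitors of DNA binding, rose by log2 0.70 and 0.69 (adjusted p = 1.94e-05 and 6.64e-05). In PA-1 the repressor gene BHLHE40 rose from 195 ± 4.15 to 355 ± 1.49 CPM (log2 0.87 ± 0.0513, adjusted p = 5.33e-08) and was the 1 gene of 15 that passed. With the GC trend removed 2 passed as higher and 2 as lower. Without a filter or with all 12 libraries in one fit, 2 passed as higher, and without BAY-850 replicate 3, 1 passed as lower. BHLHE40 also rose in SK-OV-3, from 280 ± 2.11 to 369 ± 16.1 CPM. Over 15 alternatives its log2 value there was 0.39 to 0.43, with adjusted p of at most 0.00195.

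Genes whose levels followed those of a member most closely were sought by Pearson's r of log2 CPM over the 12 libraries after the mean of each line was taken away, among genes with a mean of at least 10 CPM. The points share their libraries, so r is a description. Among the genes closest to TGFBI were FOSB and SPARC, with r of 0.993 and 0.992, which lay at log2 -4.83 and -0.81 in SK-OV-3 with BAY-850. THBS1 was followed by SGK1, COL5A2 and SRSF6 (r of 0.989, 0.988 and 0.988). For SMAD3 the closest were DENND3, FAM129A and DNMT3B (0.987, 0.986 and 0.985), which lay at log2 0.82, 0.74 and 1.18 in SK-OV-3. SMAD7 was closest to PTPRS, CDC25B and SAFB (0.976, 0.954 and 0.948), and SKIL to BTG3, IFIT2 and MBIP (0.942, 0.939 and 0.937). For TGFB1, TGFB2, TGFBR1 and TGFBR2 the highest r were 0.964 (TBL3), 0.898 (SDF4), 0.961 (DCP1A) and 0.889 (NSMAF). TGFB2 had 0 to 9 counts in the PA-1 libraries, and the part of these low counts in its r was not tested. In SK-OV-3 with BAY-850, SDF4 lay at log2 -0.12 and TGFB2 at -1.08.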

How the data were processed

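RNA of 12 libraries was measured. Per the labels, the RNA was purified with oligo-dT beads and the libraries were strand-specific, while the series' design text names ribosomal RNA depletion. The values the authors deposited are expected counts for each gene symbol and are not normalized. The submitters' processing notes name Bowtie2 2.1.0, RSEM 1.2.15 and the build hg38, and the annotation is not given in the sources used here. RSEM divides reads that fit several genes, so counts of overlapping genes are estimates of that division. Genes for ribosomal RNA took 7.94% to 16.9% of counts.

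Expected counts were rounded. The 6 libraries of a line were fitted in edgeR 4.0.16 (R 4.3.3) with TMM factors after filterByExpr. BAY-850 and DMSO were compared by its quasi-likelihood test, and p-values were adjusted over all genes tested (Benjamini-Hochberg, threshold 0.05). The interaction and the difference between DMSO groups came from one fit of the 12 libraries. The SE is the log2 fold change divided by the root of F. CPM use TMM factors over the 12 libraries, and lengths, positions and GC content were taken by symbol from GENCODE on GRCh38, with all exons of a gene merged for its length. Replicates are biological per the labels, and those of a group differed by more than sampling noise, with chi-square values of 5.05 to 72.7 for each degree of freedom. These values include the ribosomal RNA genes. The highest was for SK-OV-3 DMSO replicates 1 and 2, where those genes took 15.0% and 7.94% of counts. The lowest was for SK-OV-3 BAY-850 replicates 1 and 2 (10.7% and 10.6%). The part of ribosomal RNA in the values was not tested. Totals of 34544505 to 51840233 counts limit the precision of genes near or below 1 CPM.

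The members and lists were chosen with earlier results of these data known. All 9 members are named. From each list and line, up to 4 genes are named, those with the largest change among genes with an adjusted p under 0.05 and a mean of at least 1 CPM, and for each member the 3 genes with the highest r. One gene that this rule names is not reported here. Alternatives were DESeq2 1.42.0, library-size scaling with and without ribosomal RNA genes, RLE factors, no filter, the replicate number as a block, a minimum of 10 counts in every library, removal of a loess trend (span 0.5) on GC content, all 12 libraries in one fit, leaving out each library, and, added after seeing the data, TGFB2 counted with TGFB2-OT1. The fits were tested on simulated data.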

Additional observations from a re-analysis of the deposited data

Results flagged for a closer look

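Of the 7 members other than TGFBI and THBS1, 3 differed in response between the lines in the test of the interaction of line and BAY-850 (SK-OV-3 minus PA-1, edgeR, adjusted over 16830 genes, of which 14.5% passed). SMAD3 differed by 0.69 on the log2 scale (adjusted p = 4.92e-04), being higher with BAY-850 in all 3 SK-OV-3 libraries, and kept between 0.62 and 0.76 over 20 alternatives. SMAD7 differed by -0.65 (adjusted p = 0.00234), being higher with BAY-850 in all 3 PA-1 libraries, and lay between -0.75 and -0.56 over the same alternatives. SKIL differed by 0.32 (adjusted p = 0.00781), being lower with BAY-850 in all 3 PA-1 libraries, and fell to 0.21 with an adjusted p of 0.0655 once the GC trend was removed.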

How the results depend on the processing

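For SMAD3 and TGFB2 in SK-OV-3, SMAD7 in PA-1 and the interactions of SMAD3 and SMAD7, every alternative kept the direction and the side of the threshold, except TGFB2 with all 12 libraries in one fit (adjusted p = 0.0545). The fall of SKIL in PA-1 no longer passed at library-size scaling (adjusted p = 0.0825), with the GC trend removed (0.815) and in 5 of the fits without one library. The interaction of TGFB2 (-1.92, adjusted p = 0.188) passed by DESeq2 (-1.94, adjusted p = 0.0273) and without PA-1 DMSO replicate 1 (-6.68, adjusted p = 0.00150), which held all 9 counts of that group. The causes were not tested. Counts in PA-1, 707 higher and 378 lower genes, became 235 and 231 at library-size scaling, 394 and 155 with the GC trend removed, 469 and 214 with all 12 libraries in one fit, and 273 to 810 and 65 to 418 without one library. DESeq2 called 726 lower genes and a fit without a filter 588. In SK-OV-3, 1662 higher and 1468 lower genes ranged from 993 to 2050 and from 788 to 1852 without one library. The interaction had 773 lower genes at library-size scaling, against 1307, and 57.9% of its calls were higher, against 46.3%. Of the PA-1 calls 65.2% were higher, and 50.4% and 51.9% at library-size scaling with and without ribosomal RNA genes.

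Differences in PA-1 that did not pass changed sign near 0. THBS1 was at -0.023 and -0.0068 at library-size scaling with and without ribosomal RNA genes, and ITGAV at -0.016 and -0.0031. INHBE was at -0.0062 at library-size scaling. With the GC trend removed, TGFB1 was at -0.0013, SMAD2 at 0.020, PMEPA1 at -0.011, INHBE at -0.029, TAGLN at -0.0028 and COL1A2 at 0.036. Without one library, THBS1 lay between -0.045 and 0.082, ITGAV between -0.036 and 0.10, COL1A2 between -0.13 and 0.086, and IL11 between -0.099 and 0.0061. In SK-OV-3, SMAD7 lay between -0.00031 and 0.079 without one library.

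Deviations from the group means in same-numbered DMSO and BAY-850 libraries of a line correlated between -0.0277 and 0.00417. Those of libraries with different numbers correlated between -0.0468 and 0.0666. No effect shared by replicate number was seen, but these values cannot tell how the samples were numbered. With the replicate block, PA-1 had 624 higher and 307 lower genes, SK-OV-3 1449 and 1267, the interaction 896 and 1061, and the DMSO groups 6334 and 6323. SKIL in PA-1 then had an adjusted p of 0.0784, and no other member's call changed. Depth limits TGFB2 in PA-1, where no library exceeded 9 counts.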
